A study of Macaca mulatta with 6 samples.

Results

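CCGG sites of the rhesus macaque, Macaca mulatta, were searched for those at which a pair of digest signals differed in sperm and lay close together in haploid embryonic stem cells (ESC). In the sites that both deposited tables share on chromosomes 1 to 20, 111 of 505145 eligible sites met this description. At 34 of them the middle of the 3 deposited signals was the higher one of the pair in sperm, and these are called middle-high sites. At the other 77 the last signal was the higher one, and these are called last-high sites. The 111 sites were chosen by their measured signals, so the size of that difference is a description and no finding.

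HMST-Seq was applied to 2 groups of samples, sperm and haploid ESC, with 3 libraries each. The series title calls the haploid ESC parthenogenetic, which means that they descend from an egg without a paternal genome. The labels name no treatment for either group, and no number, age or strain of animals and no cell line or passage is stated in them. Each cell type has 1 HpaII, 1 BGT_MspI and 1 MspI library, so nothing was replicated, no test between sperm and haploid ESC was possible, and all values describe these tables.

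HMST-Seq sequences short tags next to CCGG sites that were cut. The enzyme HpaII cuts CCGG when the inner cytosine carries no modification, whereas MspI also cuts when it carries 5-methylcytosine (5mC) or 5-hydroxymethylcytosine (5hmC). The enzyme BGT adds a glucose to 5hmC, and a glucosylated site is protected from MspI, so pairs of digests can separate unmodified, 5mC and 5hmC sites. In mammals, sperm DNA is heavily methylated outside CpG islands, and imprinted regions differ in methylation between the maternal and the paternal allele. 5hmC is made from 5mC by TET enzymes and is known to be scarce in mature sperm and present in embryonic stem cells.

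For every site the authors' tables give 3 distinct signals, called here the first, the middle and the last, in an order that is not tied to the digests. The middle signal is listed once beside the first signal and once beside the last, and both listings were equal in all 1297392 sites of sperm and all 1366982 sites of haploid ESC. The pair of middle and last signals is the second pair. Its contrast is the difference of the middle and last signals over their sum, so that 0.5 means that the middle signal is 3 times the last. Because the digest of each column is unknown, a positive or negative contrast cannot be read as more or less 5mC or 5hmC. A signal sums over all cells and alleles of a sample, so the share of cells behind a difference is unknown.

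A site was eligible when its second-pair total was at least the median of the shared sites in both tables, which was 32.9 in sperm and 38.2 in haploid ESC. A site was chosen when its contrast was at least 0.5 in size in sperm and under 0.15 in haploid ESC. The signals are not whole numbers and their scaling is not stated, so the number of reads behind a site is unknown. Both tables use macaque chromosome names, and positions below are the tables' own coordinates, with no gene named.

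Strong second-pair contrasts were rare in sperm. A contrast of 0.5 or more was found at 83 eligible sites in sperm (0.0164%), of which 34 lay close to 0 in haploid ESC. A contrast of −0.5 or less was found at 121 eligible sites in sperm (0.024%), of which 77 lay close to 0 in haploid ESC. Both counts contain the chosen sites by construction. Over all eligible sites the median contrast was 0.0062 in sperm, with a standard deviation (SD) of 0.139, and −0.0023 in haploid ESC, with an SD of 0.151. Of the eligible sites, 68.9% had a contrast under 0.15 in haploid ESC. The 2 tables did not mirror each other, since the same rule with the tables exchanged gave 128 middle-high and 429 last-high sites in haploid ESC alone.

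Sites even in haploid ESC (contrast under 0.15 in size) were set against uneven ones, with both signs pooled. A strong positive sperm contrast was rarer at even sites, beyond the counting intervals. For a strong negative one the intervals overlapped. Both contrasts are part of the rule, so these shares are a description. The middle-high sites were 0.0098% of the 348028 sites under 0.15 in haploid ESC, with a 95% Wilson interval from 0.0070% to 0.0137%. Of the 157117 sites at 0.15 or more in size in haploid ESC, 49 had a sperm contrast of 0.5 or more. This is 0.0312% (0.0236% to 0.0412%). By sign, the share was 0.0191% (0.0114% to 0.0321%) at a haploid ESC contrast of 0.15 or more, which overlaps the even sites. At −0.15 or less it was 0.0418% (0.0300% to 0.0581%), which lies above them. The last-high sites were 0.0221% (0.0177% to 0.0276%) of the even sites. At the uneven sites a sperm contrast of −0.5 or less had a share of 0.0280% (0.0209% to 0.0376%). By sign, the intervals at 0.15 or more (0.0094% to 0.0286%) and at −0.15 or less (0.0270% to 0.0539%) both overlapped that of the even sites. These intervals, and all those below, cover counting error only and treat neighbouring sites as independent.

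**Figure D1:**
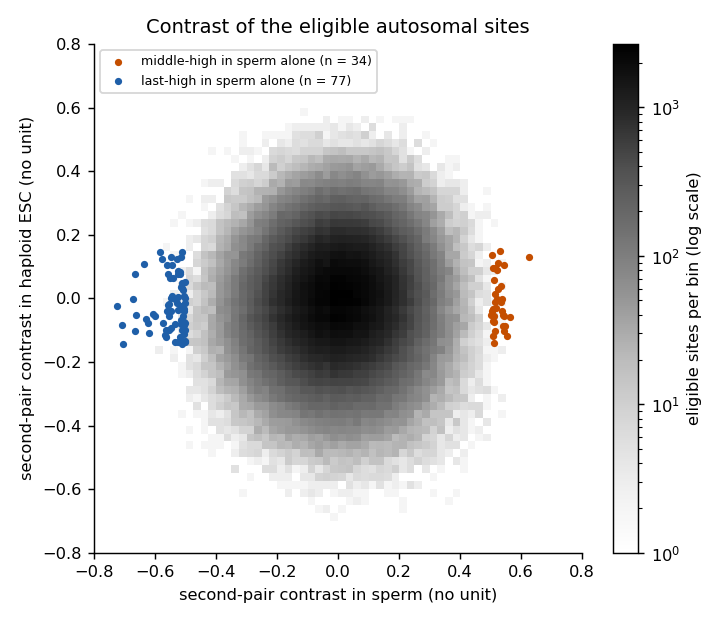
Second-pair contrast in sperm (horizontal axis) and in haploid ESC (vertical axis), both without unit. Grey shading counts the 505145 eligible sites per bin on a log scale, orange points are the 34 middle-high sites and blue points the 77 last-high sites, which form narrow bands at both sides where the shading is thinnest.

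The chosen sites sat just beyond the cutoff. The median sperm contrast was 0.52 in the middle-high sites, with a range from 0.50 to 0.62. In the last-high sites it was −0.53, with a range from −0.73 to −0.50. The last-high group therefore reached further out. The 3 middle-high sites nearest to the cutoff had contrasts of 0.5023, 0.5028 and 0.5032, and the 3 sites just outside it had 0.4998, 0.4994 and 0.4974. For the last-high sites the nearest values inside were −0.5003, −0.5008 and −0.5010, and those just outside were −0.4999, −0.4987 and −0.4984. Sites on both sides of the cutoff were thus nearly equal, and the cutoff marks no gap in the data.

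The signals that chose the last-high sites are given as a description. The median of the middle signal was 14.0 in sperm and 32.5 in haploid ESC, and it was higher in sperm at 8 of 77 sites. The last signal had a median of 45.4 in sperm and 33.0 in haploid ESC, and it was higher in sperm at 65 of 77 sites. The median log2 ratio of sperm over haploid ESC was −1.11 for the middle signal and 0.53 for the last. The second-pair total had a median of 58.3 in sperm and 63.6 in haploid ESC. Of the other eligible sites, 55.7% had a higher middle signal and 54.3% a higher last signal in sperm than in haploid ESC.

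The middle-high sites are described in the same way. Their last signal had a median of 11.8 in sperm and 26.6 in haploid ESC, and it was higher in sperm at 2 of 34 sites. Their middle signal had a median of 38.5 in sperm and 26.3 in haploid ESC, and it was higher in sperm at 29 of 34 sites. The median log2 ratio of sperm over haploid ESC was −1.15 for the last signal and 0.49 for the middle. Of the other eligible sites, 54.3% had a higher last signal and 55.7% a higher middle signal in sperm. Over all eligible sites these median log2 ratios were 0.07 for the last and 0.09 for the middle signal. These signals chose the sites, so the sign and the rough size of these ratios are set by the rule: at an equal total, the lower signal must stand further from its haploid ESC level on the log scale than the higher one.

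**Figure D2:**
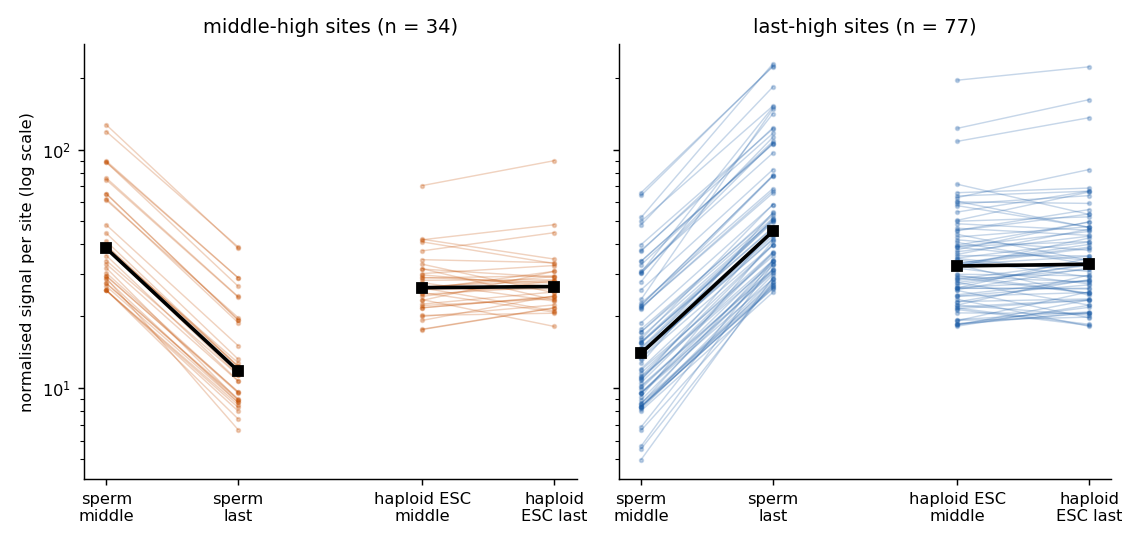
Middle and last signal of each chosen site in sperm (left pair) and in haploid ESC (right pair), as normalised signal on a log axis, for the 34 middle-high sites (left panel) and the 77 last-high sites (right panel). Thin lines join the 2 signals of a site and black squares are medians, which slope in sperm and are nearly level in haploid ESC (32.5 and 33.0 for last-high sites, 26.3 and 26.6 for middle-high sites).

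The site with the strongest contrast of all eligible sites in sperm was last-high and lay at position 54670369 of chromosome 18. Its middle and last signals were 23.5 and 148 in sperm, a contrast of −0.73, and 65.9 and 69.0 in haploid ESC, a contrast of −0.02. The next listed sites on either side, 2787 and 3862 bp away, had contrasts of −0.38 and −0.06 in sperm and of 0.22 and 0.21 in haploid ESC. The nearer neighbour thus also leaned to the last signal in sperm and, unlike the chosen site, to the middle signal in haploid ESC.

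The chosen sites were ranked by second-pair total relative to the median, in whichever cell type this was lower. The last-high site highest in this ranking was at position 79176121 of chromosome 15. Its middle and last signals were 51.9 and 229 in sperm and 196 and 223 in haploid ESC. A second site 4 bp away had a middle and a last signal of 306 and 260 in sperm and of 89.8 and 91.1 in haploid ESC. Tags from sites this close can overlap, and how the authors assigned them is not stated. Within these 4 bp the sperm contrast was −0.63 at the one site and 0.08 at the other.

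On chromosome 11 a pair of last-high sites with high signal lay far apart. The site at position 72338559 had a middle and a last signal of 37.5 and 124 in sperm and of 123 and 162 in haploid ESC. The site at position 14708845 had 65.9 and 223 in sperm and 58.2 and 47.2 in haploid ESC. At the first the last signal was lower in sperm than in haploid ESC, whereas at the second it was more than 4 times as high in sperm. Sites of the same contrast could thus come about through either signal.

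At position 114961023 of chromosome 14 the middle and last signals were 48.3 and 183 in sperm and 71.5 and 53.4 in haploid ESC. At position 82465997 of chromosome 12 they were 21.4 and 77.4 in sperm and 108 and 136 in haploid ESC. Position 16904691 of chromosome 10 had 30.3 and 113 in sperm and 44.1 and 34.3 in haploid ESC. Both the chromosome 14 and the chromosome 10 site leaned to the middle signal in haploid ESC, with contrasts of 0.14 and 0.12, the opposite side to sperm. The other last-high sites among the 10 highest in the ranking by relative total were on chromosomes 19, 7, 2 and 6. Their positions were 2080971, 79319942, 51034567 and 159734052. Their sperm contrasts were −0.56, −0.55, −0.51 and −0.56.

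The middle-high site highest in the ranking by relative total was at position 153344454 of chromosome 7. Its middle and last signals were 119 and 39.1 in sperm, a contrast of 0.51, and 70.7 and 89.8 in haploid ESC, a contrast of −0.12. A listed neighbour shared by both tables, 775 bp away, had 11.9 and 7.16 in sperm and 21.4 and 10.8 in haploid ESC. The neighbour leaned to the middle signal in both cell types, but its total was below the minimum for an eligible site in both. The chosen site leaned to the middle signal in sperm alone.

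The middle-high site with the highest total in sperm, at position 13550030 of chromosome 3, had a middle and a last signal of 127 and 38.5 in sperm and of 28.9 and 29.5 in haploid ESC. Its first signal was 249 in sperm and 249 in haploid ESC, so the cell types were level in the first signal and apart in the middle one. At position 53414008 of chromosome 4 the middle and last signals were 48.3 and 15.04 in sperm and 29.1 and 27.5 in haploid ESC. The first signal there was 329 in sperm, the highest of the middle-high sites, and 292 in haploid ESC. A site 21 bp away had a sperm contrast of −0.09, at a sperm total below the minimum for an eligible site.

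The strongest middle-high contrast, 0.62, was at position 9350525 of chromosome 1, where the middle and last signals were 28.9 and 6.67 in sperm and 23.4 and 18.1 in haploid ESC. This site lay close to the minimum total. The remaining middle-high sites among the 10 highest in the ranking by relative total were on chromosomes 10, 6, 1, 5, 5, 2 and 10. Their positions were 58422156, 1573289, 89957430, 89128828, 108838067, 64249612 and 37515372. Their sperm contrasts were 0.51, 0.54, 0.51, 0.54, 0.50, 0.55 and 0.52.

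Totals are part of the rule and are given as a description. At least 2 times the median total in both tables was found at 22 last-high sites, or 28.6% (19.7% to 39.5%), and at 2 middle-high sites, or 5.88% (1.63% to 19.1%), against 31.7% of all eligible sites. The background lies inside the last-high interval and above the middle-high one. By quintiles of the second-pair total in sperm, from low to high, the middle-high sites numbered 14, 8, 1, 9 and 2, and the last-high sites 24, 14, 15, 7 and 17. The lowest quintile held the most sites in both groups, and 17 last-high sites remained in the highest quintile.

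The first signal, which is no part of the rule, was high at the chosen sites in sperm. Its median was 99.7 in the middle-high sites, with quartiles of 24.6 and 165, and 101 in the last-high sites, with quartiles of 42.6 and 143. Over the other eligible sites the sperm median was 21.1, with quartiles of 11.7 and 41.6. In haploid ESC the median first signal was 32.5 in the middle-high sites, 49.9 in the last-high sites and 25.3 in the other eligible sites. The first signal was higher in sperm than in haploid ESC at 21 of 34 middle-high sites, at 55 of 77 last-high sites and at 40.1% of the other eligible sites. The ranges overlapped widely, since first signals in sperm went from 3.07 to 329 in the middle-high and from 3.03 to 280 in the last-high sites.

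In the top quintile of the first signal in sperm lay 19 of 34 middle-high sites, or 55.9% (39.5% to 71.1%), and 53 of 77 last-high sites, or 68.8% (57.8% to 78.1%). This quintile holds 20% of all eligible sites by its making. In the top quintile of the first signal in haploid ESC the shares were 32.4% (19.1% to 49.2%) and 48.1% (37.3% to 59.0%). Per 100000 eligible sites, the top decile of the first signal in sperm gave 27.7 middle-high and 53.5 last-high sites, against 1.98 of each in the lowest decile. The count of last-high sites stood at 26 and 27 in the 2 highest deciles and at 7 or fewer in each of the others. The middle-high sites were concentrated in the highest decile alone, with 14 sites, against 5 or fewer in each of the others.

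**Figure D3:**
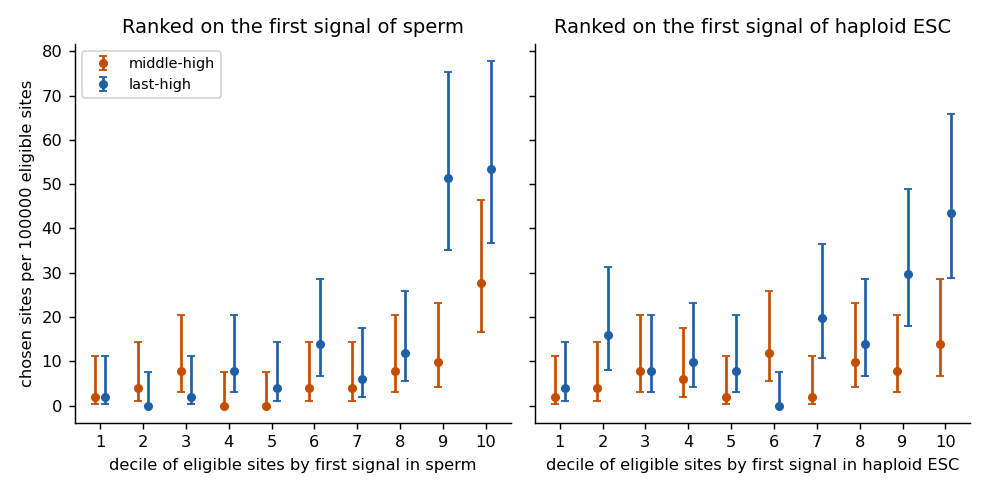
Chosen sites per 100000 eligible sites in deciles of the first signal, from low (1) to high (10), ranked in sperm (left) and in haploid ESC (right). Points are rates and bars are 95% Wilson intervals of counting error; orange is middle-high and blue last-high, and the highest rates, 53.5 for last-high and 27.7 for middle-high sites, stand in the top decile of sperm.

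Sites with a strong sperm contrast and an uneven pair in haploid ESC had similar shares. Where the haploid ESC contrast was 0.15 or more in size, 61.2% of 49 sites with a sperm contrast of 0.5 or more and 63.6% of 44 sites with one of −0.5 or less lay in the top quintile of the first signal in sperm. These intervals, from 47.2% to 73.6% and from 48.9% to 76.2%, overlap those of the chosen sites. Sites with a strong contrast in haploid ESC alone lay there in 25.8% (19.0% to 34.0%) of 128 middle-high and 18.2% (14.8% to 22.1%) of 429 last-high sites. Ranked on the first signal of haploid ESC itself, those sites were in the top quintile in 25.8% and 31.0% of cases. The sperm-alone and haploid-ESC-alone sites thus had intervals that did not overlap on the first signal of sperm.

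The spread of the contrast over all eligible sites also moved with the first signal. Its SD in sperm was 0.128 in the lowest and 0.152 in the highest decile of the first signal, while the median second-pair total was 61.9 and 120. In haploid ESC the SD was 0.144 in the lowest and 0.152 in the highest decile, with median totals of 58.0 and 82.6. The part of this spread in the rates above was not tested.

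In the authors' deposited tables an adjusted p below 0.05 is called here a call. All 34 middle-high and all 77 last-high sites were called for the second pair in sperm, against 15.4% of eligible sites, which follows from the rule since it uses the same signals. In haploid ESC, where 17.5% of eligible sites were called for the second pair, 0 of 34 middle-high and 2 of 77 last-high sites were called, which also follows from the rule, since it asks for a contrast under 0.15 there. Both of these were named above, at position 72338559 of chromosome 11 and position 82465997 of chromosome 12, with adjusted p values of 0.0075 and 0.026 in the authors' deposited table. Their second-pair totals in haploid ESC were 285 and 244, against a median of 63.6 over the last-high sites.

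For the first pair, which sets the first against the middle signal, 30 of 34 middle-high sites (88.2%, 73.4% to 95.3%) were called in sperm, and 71 of 77 last-high sites (92.2%, 84.0% to 96.4%). The background was 82.1% of eligible sites in sperm. It lies inside the interval of the middle-high sites and below that of the last-high sites. With the 75th percentile as minimum total, 96.3% (81.7% to 99.3%) of 27 last-high sites were called in sperm. The background there was 91.5%, which this interval contains. In haploid ESC 24 of 34 middle-high sites (70.6%, 53.8% to 83.2%) and 65 of 77 last-high sites (84.4%, 74.7% to 90.9%) had a first-pair call, against 76.6% of eligible sites, which both intervals contain. The middle signal belongs to both pairs, so these calls are not independent of the rule.

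The first signal was also set against the pair directly. It was above both the middle and the last signal in sperm at 23 of 34 middle-high sites (67.6%) and at 48 of 77 last-high sites (62.3%), against 27.4% of the other eligible sites. In haploid ESC the shares were 50.0% of middle-high and 61.0% of last-high sites, against 28.3% of the other eligible sites. The interval of the middle-high sites in haploid ESC runs from 34.1% to 65.9%.

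With 111 chosen sites among 505145, the distances between them say little about clustering and are given as values. No 2 chosen sites were within 1000 bp of each other. The closest pair, 32214 bp apart on chromosome 15, was a last-high site at position 101170962 and a middle-high site at position 101203176. The closest of equal sign were a pair of last-high sites at positions 1004806 and 1062567 of chromosome 15, 57761 bp apart. The closest middle-high pair was 1562497 bp apart on chromosome 6.

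The nearest other eligible site within 1000 bp had a contrast near 0 on the median. It was found for 47 last-high sites and had a median sperm contrast of −0.027, with a 95% interval of the median from −0.055 to 0.081. For 15 middle-high sites the median was 0.043, with an interval from −0.223 to 0.119. Beside all eligible sites with such a neighbour the median was −0.015, which both intervals contain. Of these neighbours, 7 of 47 beside last-high sites (14.9%) had a contrast of −0.15 or less, against 17.1% beside all eligible sites. Beside middle-high sites 2 of 15 (13.3%) had a contrast of 0.15 or more, against 12.1% beside all eligible sites. On the opposite side, 5 of these 15 (33.3%) had a contrast of −0.15 or less, against 17.1% beside all eligible sites. None of these neighbours reached 0.5 in size, and of the neighbours of all eligible sites 0.0632% did, so at these numbers no such neighbour says nothing about the chosen sites.

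Closer neighbours gave a similar picture. Within 200 bp, 22 last-high sites had an eligible neighbour, with a median sperm contrast of −0.019 and a range from −0.302 to 0.346. Of these 22 neighbours, 12 (54.5%) lay below 0. Beside all eligible sites with such a neighbour the median was −0.025, and 57.2% lay below 0. The 4 middle-high sites with such a neighbour gave a median of 0.041 and a range from −0.260 to 0.247. Over all eligible sites, the contrasts of adjacent sites 51 to 200 bp apart had a Pearson r of 0.002 in sperm and 0.125 in haploid ESC, over 37209 pairs that share a library and a scaling. At this distance the contrasts of adjacent sites in sperm were thus nearly uncorrelated.

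**Figure D4:**
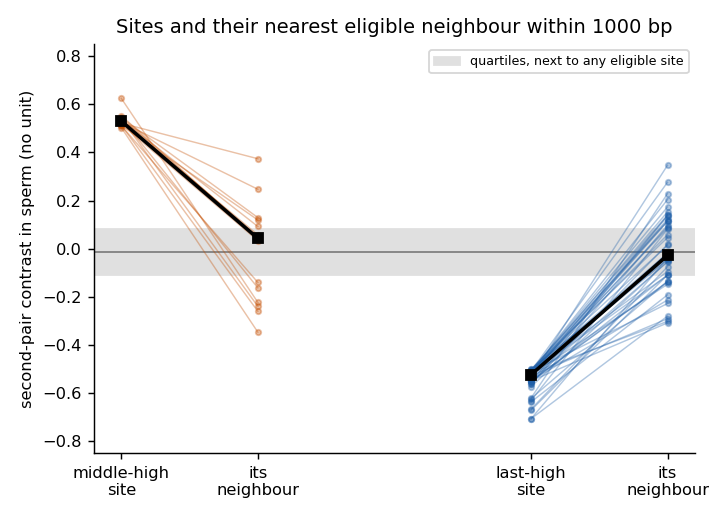
Sperm second-pair contrast (vertical axis, no unit) of each chosen site and of its nearest other eligible site within 1000 bp, for 15 middle-high and 47 last-high sites. Thin lines join a site to its neighbour, black squares are medians, and the grey line and band give the median and quartiles next to any eligible site, where the neighbours' medians of 0.043 and −0.027 fall.

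Distances to other listed sites were compared next. No other site was listed within 1000 bp in sperm for 5 of 34 middle-high sites, or 14.7% (6.45% to 30.1%), and for 13 of 77 last-high sites, or 16.9% (10.1% to 26.8%), against 35.6% of the other eligible sites. The median distance to the nearest listed site was 298 bp in the middle-high sites, 253 bp in the last-high sites and 524 bp in the other eligible sites. Tags can overlap where sites lie within 50 bp, the read length. This held for 3 middle-high sites, or 8.82% (3.05% to 23.0%), and for 4 last-high sites, or 5.19% (2.04% to 12.6%). Both intervals contain the background of 4.50% of the other eligible sites. Among sites in haploid ESC alone, 28.9% (21.8% to 37.3%) of middle-high and 15.9% (12.7% to 19.6%) of last-high sites had no listed site within 1000 bp. The last-high sites of both cell types thus had similar shares. The differences from the background did not hold under all limits. At a sperm contrast cutoff of 0.4, chosen after seeing the data, 33.6% (29.7% to 37.7%) of 530 middle-high sites had no listed site within 1000 bp, an interval that contains the background of 35.6%. With the 75th percentile as minimum total, 25.9% (13.2% to 44.7%) of 27 last-high sites had none, against 37.4% of eligible sites.

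Spacing and first signal were then separated. Among sites with a listed neighbour within 1000 bp, the last-high rate per 100000 was 54.2 (40.5 to 72.5) in the top quintile of the first signal in sperm, against 7.84 (5.02 to 12.2) in the lower quintiles. Among sites without one it was 44.4 (22.5 to 87.7), from 8 sites, against 3.09 (1.32 to 7.24). The middle-high rate was 21.7 (13.7 to 34.3) against 4.54 (2.53 to 8.13) with a listed neighbour, and it rested on 1 and 4 sites without one. For last-high sites the difference by first signal was thus present at both spacings. The difference by spacing was less clear, since the last-high intervals with and without a listed neighbour overlapped in the top quintile and in the lower ones. Without the split by first signal these last-high rates were 19.7 (15.4 to 25.1) and 7.23 (4.23 to 12.4). The SD of the sperm contrast was 0.142 over eligible sites with a listed neighbour and 0.131 over those without.

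Position along the chromosome was compared next. Within 5 Mb of the first base or of the last listed site of a chromosome lay 23 of 77 last-high sites, or 29.9% (20.8% to 40.8%), and 3 of 34 middle-high sites, or 8.82% (3.05% to 23.0%), against 14.7% of the other eligible sites. The background lies inside the middle-high interval and below the last-high one. Per 100000 eligible sites, last-high sites numbered 31.0 (20.7 to 46.6) within 5 Mb of an end and 12.5 (9.6 to 16.3) beyond it. Among sites with a listed neighbour within 1000 bp alone, these rates were 32.6 (21.3 to 49.9) and 16.5 (12.2 to 22.2), and the intervals overlapped.

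Last-high sites in haploid ESC alone gave a similar share, since 24.9% (21.1% to 29.2%) of them lay within 5 Mb of an end. Of the 44 sites with a sperm contrast of −0.5 or less and a haploid ESC contrast of 0.15 or more in size, 15.9% (7.93% to 29.4%) lay there, and this interval overlaps that of the last-high sites. The last-high and middle-high intervals overlap each other narrowly, and no test was made between them.

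**Figure D5:**
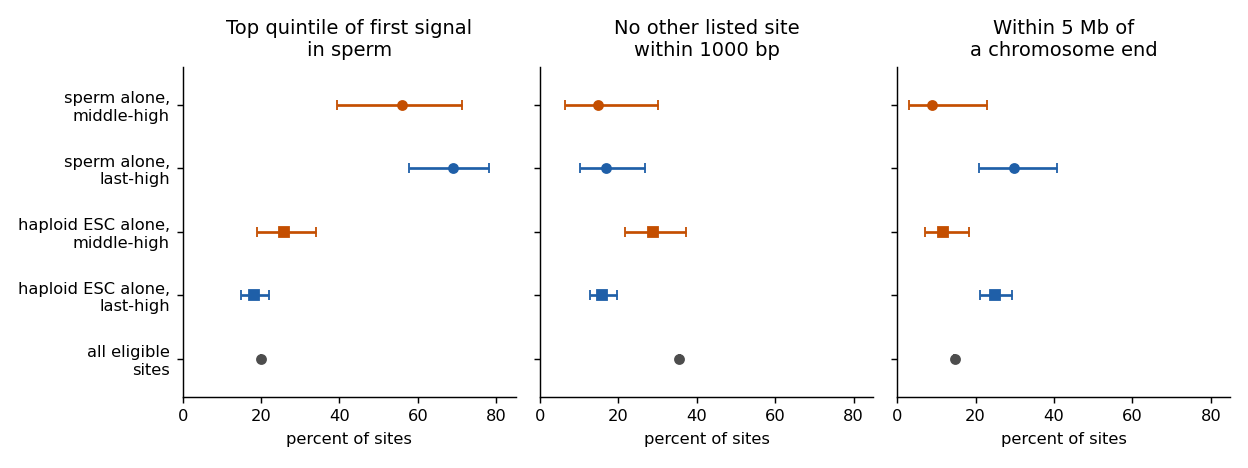
Percent of sites in the top quintile of the first signal in sperm (left), with no other listed site within 1000 bp in sperm (centre) and within 5 Mb of a chromosome end (right), for sites with a strong contrast in sperm alone (circles), in haploid ESC alone (squares) and all eligible sites (grey). Bars are 95% Wilson intervals of counting error, and the first panel sets 55.9% and 68.8% of the sperm-alone sites against 25.8% and 18.2% of the haploid-ESC-alone sites.

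By chromosome the sites were scattered. Last-high sites were found on each of the 20 chromosomes except 17, with 8 on chromosome 3 and 7 on chromosome 1. The highest rate was on chromosome 19, with 30.1 (12.9 to 70.5) per 100000 eligible sites, and the lowest above 0 on chromosome 5, with 3.87 (0.683 to 21.9). Middle-high sites were most numerous on chromosome 6, with 5 sites, and none was found on chromosomes 8, 13, 14, 17, 18 and 19. Chromosome 17 held 14956 eligible sites and no chosen site of either kind, where the Wilson interval reaches up to 25.7 per 100000. These intervals overlap between chromosomes.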

How the data were processed

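HMST-Seq libraries of QIAamp-purified DNA were read on a HiSeq2000 in single-end runs of 50 bp, per the labels' protocols. The authors deposited 1 table per cell type without a header, which the labels tie to its 3 libraries. The columns were read as chromosome, position, 2 pairs of normalised signal, and a p-value and adjusted p-value per pair; this reading is inferred. The authors' deposited signal values were used as they stand. The adjusted p-value of the second pair was treated as a score, because the authors' deposited column reaches 1.03. For the aligner, scaling, filters and the authors' test, nothing is stated in the labels; depth is unknown. The submitters' processing notes name hg19, which was not taken as the build, since the tables name macaque chromosomes. The last site on chromosome 13 is 137160381, whereas genes of the supplied macaque annotation (another assembly) end at 124818264 there, so no gene was assigned and no sequence was read.

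Tables were joined on chromosome and position in Python 3.11.15 with pandas 2.3.3, NumPy 2.4.6 and SciPy 1.17.1. The selection was run on simulated data whose planted sites stood clear of all others. Recovering them checked the code only and says nothing about noise in the measured signals. Shares carry 95% Wilson intervals and medians order-statistic intervals. Values of sites present in both tables were compared, and sites listed in one alone were left out. The sites named are the 10 per sign with the highest total relative to the median in the weaker table, up to 5 with the largest contrast at 2 times the median or more, and those nearest the cutoffs; the strongest middle-high site, the closest pairs and the sites called in haploid ESC were added after their values were seen. The planned naming of groups of neighbouring sites gave none. The sites, measures and settings were chosen with earlier results of these data known. Alternatives changed the minimum total, both contrast limits, the scaling, a pseudocount and the p threshold.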

Additional observations from a re-analysis of the deposited data

How the results depend on the processing

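The number of chosen sites depended on the limits. With the 75th percentile as minimum total, 4 middle-high and 27 last-high sites met the rule, and with no minimum 3236 and 3183 did. A sperm contrast cutoff of 0.4 gave 530 and 760, and one of 0.6 gave 1 and 12. A haploid ESC limit of 0.10 gave 51 last-high sites. First-pair calls covered 100% of the 4 middle-high sites at the 75th percentile, against 91.5% of eligible sites there, and 80.5% of last-high sites at an adjusted p below 0.001 in the authors' deposited table, against 64.2% of eligible sites. At a cutoff of 0.4, 37.7% of middle-high and 49.6% of last-high sites lay in the top quintile of the first signal in sperm, and 33.6% of middle-high sites had no listed site within 1000 bp, against 35.6% of eligible sites. With the 1 middle-high site at 0.6 these shares were 100% and 0%, and 0% lay within 5 Mb of an end; at the 75th percentile 25% of 4 did. The cause of these changes was not tested. Of 54 alternative values, 36 moved less than the limits set for them, among them all medians of neighbouring sites. For middle-high sites that limit was the full range of 4 neighbours, from −0.260 to 0.247. The alternatives reused some or all of these neighbours, so staying within that range says little about stability. No replicate could be left out, with 1 library per digest. A paired test was not possible either, since each digest had 1 library per cell type and no signal is tied to a digest. The unknown depth limits all contrasts near the minimum total.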

Other observations

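Chromosome X lay outside the selection. Of its 10054 sites with a sufficient total in both tables, 2 met the same limits (0.0199%), against 111 of 505145 eligible sites in the selection. Both were last-high, as were 77 of those 111. These 2 sites are too few to show a lean to either sign on chromosome X. At position 141783345 the middle and last signals were 13.4 and 42.8 in sperm and 38.7 and 38.1 in haploid ESC. At position 150935565 they were 34.1 and 145 in sperm and 71.5 and 63.4 in haploid ESC.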
